A study of Mus musculus with 12 samples.

Results

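The genes of glycolysis and of the pentose phosphate pathway were measured by bulk RNA sequencing in mouse peritoneal macrophages, with and without lipopolysaccharide (LPS). The set holds 34 genes, chosen by symbol from the glucose transporter gene Slc2a1 to the last enzymes of the pentose phosphate pathway, out of 53465 genes in the deposited table. All 34 symbols were found, in 35 rows because Aldoa has a second entry that stayed below 16 in every library. The cells came from C57BL/6 mice of postnatal week 10, and the 12 libraries form 4 groups of 3. The genotype label is Lyz2Cre or Lyz2Cre-BHLHE40-Fl, and each label has a control group and an LPS group. Every group, controls included, carries Cre driven from the lysozyme 2 locus, which acts in macrophages and other myeloid cells, and no group without Cre was analysed here. The label with BHLHE40 names a transcription factor of the basic helix-loop-helix family. The sources used here give neither the dose nor the duration of LPS. The labels do not say whether replicates came from separate animals or cultures, so the p-values speak of the spread among these libraries, which may be technical.

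Glycolysis takes up glucose, traps it as glucose 6-phosphate, splits the 6-carbon sugar into triose phosphates and turns these into pyruvate, with a net gain of ATP. Pyruvate is either reduced to lactate and exported or enters mitochondria, where pyruvate dehydrogenase kinases hold back its oxidation. The pentose phosphate pathway branches off at glucose 6-phosphate and makes NADPH and ribose 5-phosphate. Macrophages that sense LPS are known for a shift towards glycolysis and lactate export, in which the transcription factor HIF-1 takes part.

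Promoter windows of 4 genes are shown first because the regulators named above read short motifs that can be looked up in them. The E-box CACGTG is a known binding motif of BHLHE40, and the core of the HIF-1 motif is ACGTG or, in a variant, GCGTG. Each window is the 250 bases before a RefSeq start site (GRCm38.p6), written 5′ to 3′ in the direction of the gene, and none overlaps an exon of GENCODE M21. Capitals mark the E-box and both HIF-1 cores on either strand, and on the other strand the cores read CACGT and, for the variant, CACGC. All 4 lie on the plus strand, Ldha at chr7:46845554-46845803, Slc16a1 at chr3:104638414-104638663, Pgk1 at chrX:106186850-106187099 and Pdk1 at chr2:71872974-71873223. The Ldha window lies inside the GENCODE span of the gene, in an intron of a longer transcript, and the other 3 lie upstream of their genes. Ldha was chosen for its pair of E-boxes, Slc16a1 as a gene with an E-box and little difference between genotype labels, Pgk1 for ACGTG without an E-box, and Pdk1 as a gene with a large difference and no ACGTG.
Ldha: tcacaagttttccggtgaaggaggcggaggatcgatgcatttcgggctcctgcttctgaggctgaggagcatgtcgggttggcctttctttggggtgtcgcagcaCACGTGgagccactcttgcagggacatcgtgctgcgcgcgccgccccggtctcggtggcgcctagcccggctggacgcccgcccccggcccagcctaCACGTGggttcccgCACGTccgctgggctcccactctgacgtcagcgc
Slc16a1: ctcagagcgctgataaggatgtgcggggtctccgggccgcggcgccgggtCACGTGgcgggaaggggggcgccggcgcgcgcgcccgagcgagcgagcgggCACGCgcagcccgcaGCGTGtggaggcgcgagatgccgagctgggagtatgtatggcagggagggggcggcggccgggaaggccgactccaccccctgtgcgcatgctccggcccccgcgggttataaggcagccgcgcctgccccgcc
Pgk1: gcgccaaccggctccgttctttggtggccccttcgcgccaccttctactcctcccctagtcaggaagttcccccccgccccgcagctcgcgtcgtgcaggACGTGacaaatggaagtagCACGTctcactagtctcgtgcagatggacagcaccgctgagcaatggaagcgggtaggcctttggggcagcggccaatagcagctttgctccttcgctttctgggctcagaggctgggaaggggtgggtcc
Pdk1: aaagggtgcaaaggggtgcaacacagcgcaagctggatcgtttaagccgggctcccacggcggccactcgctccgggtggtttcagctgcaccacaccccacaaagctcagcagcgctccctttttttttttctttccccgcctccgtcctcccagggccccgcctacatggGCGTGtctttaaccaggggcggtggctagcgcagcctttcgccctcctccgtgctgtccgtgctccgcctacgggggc
The 34 genes have 49 such windows in the RefSeq table. CACGTG was found in 5 of the 49 (10.2%), at Pfkm, Pfkfb3, Ldha, Slc16a1 and Pdk2, against 6.02% of 32851 windows of all genes. ACGTG was found in 34.7% of the windows of the set and in 16.6% of all windows, counting those that lie inside CACGTG. Outside CACGTG the shares were 26.5% and 11.4%, and for GCGTG they were 55.1% and 28.2%. The windows of the set were also richer in G and C, with a median of 59.6% against 52.4%, and the part of base composition in these shares was not tested. A match is only a run of letters, and no binding was measured here.

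Values are reads assigned to a gene, multiplied by 1 factor per library as deposited, and are called scaled reads. Differences are on the log2(scaled reads + 1) scale, and a gene is called, or said to rise or fall, at a limma adjusted p below 0.05. Libraries held 20489417 to 29354869 assigned reads, which is ample for most of the set, since 32 of the 34 genes had more than 100 reads summed over each group of 3 libraries. The others were Pdk2, with 11 and 12 reads in the LPS groups, and Pdk4, with 0 to 14 reads in a group. The deposited factors left different totals. In Lyz2Cre they averaged 22693602 scaled reads per control library and 37605645 per LPS library, and with the BHLHE40-Fl label 20073802 and 30832914. Scaled to the same total in every library, the table gave another median LPS change over all genes, going from 0 to -0.57 (log2) in Lyz2Cre and from -0.053 to -0.56 with the BHLHE40-Fl label. The same step moved the median difference between labels from 0.0013 to 0.17 in controls and from -0.018 to 0.22 with LPS. The LPS changes, folds and calls below are on the deposited scaling unless another is named. Equal library totals make rises smaller and falls larger, and can turn an uncalled change into a called fall, as for Tpi1 below. RNA of Bhlhe40, the gene in the genotype label, was higher in the BHLHE40-Fl-labelled controls (7893 ± 239) than in the Lyz2Cre ones (4976 ± 295, SD, n = 3), by 0.67 log2 (limma adjusted p = 6.32e-06). The LPS groups held 2232 ± 244 and 2467 ± 226 (limma adjusted p = 0.201), a difference of -0.15 that turned to 0.14 with equal library totals. A whole-gene value does not show the loss of single exons, and the groups are called libraries labelled Lyz2Cre-BHLHE40-Fl below.

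The genotype labels also differed in markers of other cells. All 9 macrophage markers were detected in every group, with summed levels of 120295 to 132430 scaled reads in Lyz2Cre controls and 64684.5 to 74025.8 in controls labelled Lyz2Cre-BHLHE40-Fl. With LPS these sums were 161556 to 168835 and 90195.9 to 94258.9. In either treatment 7 of the 9 markers were called lower and 1 higher under the BHLHE40-Fl label. Of all tested genes 16.6% and 15% were lower and higher in controls, and 19.8% and 17.7% with LPS. The sums are led by abundant markers. Under the BHLHE40-Fl label the median log2 difference of the 9 markers was -2.43 in controls and -1.03 with LPS. Of 9 mesothelial markers, 8 were called higher under that label in either treatment, but most of these were at or near 0 in every Lyz2Cre library and passed the filter on low values (at least 1 in at least 3 libraries) through the libraries where they were high, so the count of calls carries no weight. Their sums were 19.3 to 37.7 in Lyz2Cre controls, with Upk3b, Msln and Krt18 at 0, and 1829.2 to 2557.9 in controls of the other label. With LPS they were 7.8 to 32 in Lyz2Cre, with Upk3b and Krt8 at 0, and 1277.3 to 1587.8 under the other label, with none at 0. Of 7 fibroblast markers 6 were higher in either treatment and 1 lower with LPS, and 6 also rose with LPS in Lyz2Cre, with sums of 1993.1 to 2155.2 against 9579 to 12129.3 in controls and 4297.2 to 5688.4 against 11165 to 14855.6 with LPS, and none at 0 in all 3 libraries of any group. T and NK cell markers were called lower in 7 of 7, but under the BHLHE40-Fl label they were at or near 0. They passed the filter mostly through the Lyz2Cre libraries, where they were higher, so this count carries no weight either. Their sums were 90 to 110.1 against 8.7 to 15.8 in controls and 59.3 to 82.4 against 0 to 7.1 with LPS. Cd3e was at 0 under the BHLHE40-Fl label in both treatments. The sums of 6 B cell markers were 1384.5 to 1533.4 against 260.3 to 334.6 in controls, and 2006.5 to 2437.3 against 173.2 to 226.7 with LPS, where Cd79a was at 0 under the BHLHE40-Fl label. By the limma call 1 of the 6 was lower in controls and 2 with LPS. Of 8 resident peritoneal macrophage markers 4 were lower and 2 higher in either treatment. Their sums were 484 to 517 against 542.3 to 620.3 in controls and 398.1 to 442.8 against 437.7 to 484.6 with LPS. Of 9 neutrophil markers 4 were tested, with 3 lower and 1 higher in either treatment. Their sums were 1621.9 to 1819.8 against 1385 to 1563.2, and 3173.7 to 3384.4 against 4036.5 to 4538.6 with LPS. Mast, dendritic and eosinophil markers summed to at most 419.4. Mitochondrial genes took 1.13% of reads in Lyz2Cre controls and 0.562% with LPS, and 1.36% and 1.52% under the BHLHE40-Fl label. Replicate 1 of the BHLHE40-Fl-labelled LPS group stood apart, with 0.756% against 1.92% and 1.89% in the other libraries of its group. The part of these markers and of the mitochondrial share in the differences below was not tested.

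Together the 34 genes took a smaller share of the reads under the BHLHE40-Fl label and a smaller share with LPS. In Lyz2Cre they held 1.03% ± 0.0129 of assigned reads in controls and 0.814% ± 0.0139 with LPS, and under the BHLHE40-Fl label 0.631% ± 0.0235 and 0.487% ± 0.0161 (SD, n = 3). No 2 groups overlapped, and each of the 4 comparisons had p = 0.1 in a two-sided exact permutation test, the smallest that 3 against 3 can give, so none could pass 0.05. In bulk RNA, fewer cells of a type and less RNA per cell cannot be told apart. Aldoa and Pkm made up the most of the set in Lyz2Cre controls, with 19.7% and 19.4% of its reads. With LPS under the BHLHE40-Fl label Hk3 alone made up 31%, against 6.07% in Lyz2Cre controls. These are shares of reads, not corrected for gene length.

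**Figure D1:**
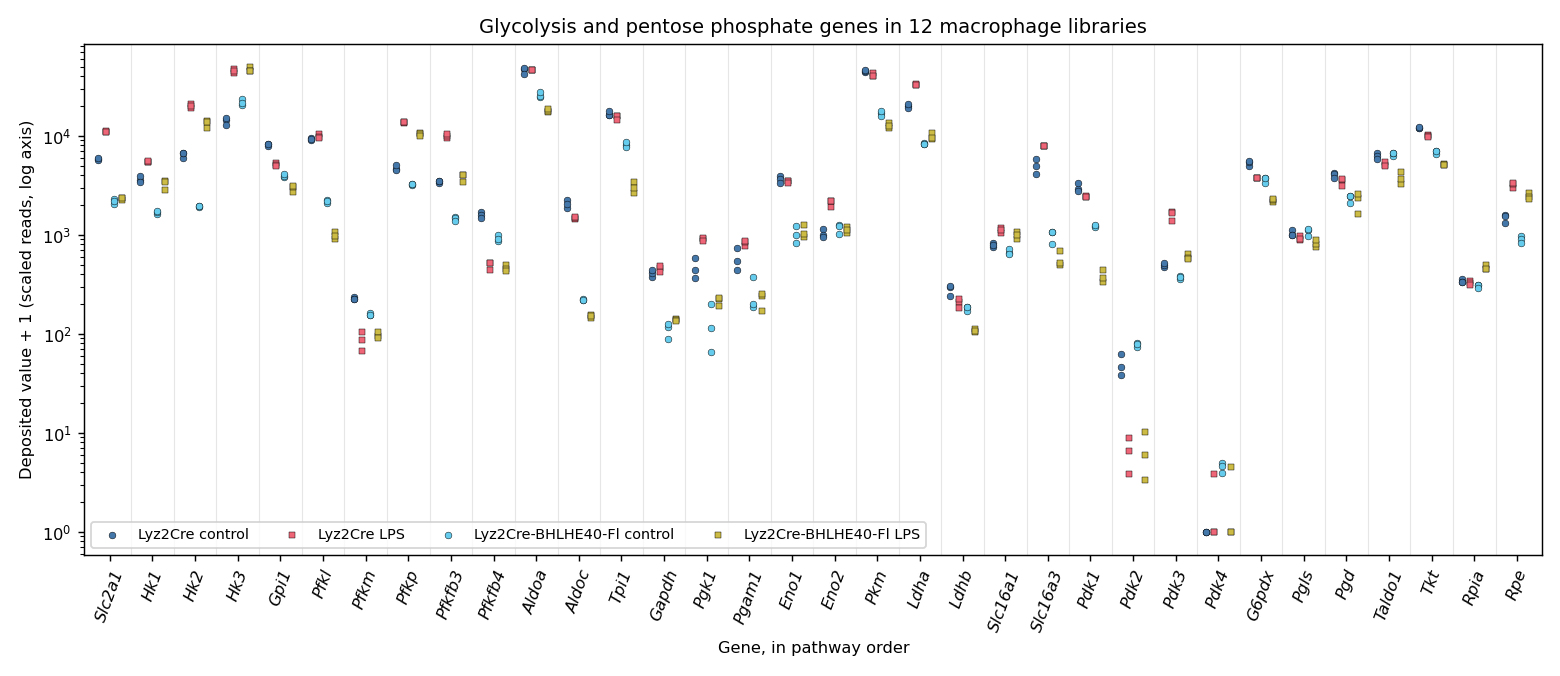
Scaled reads plus 1 (log axis) of the 34 genes in pathway order, 1 point per library, with circles for controls and squares for LPS, dark blue and red for Lyz2Cre, light blue and yellow for Lyz2Cre-BHLHE40-Fl. Most light blue and yellow points lie below the dark blue and red ones, Hk3 in controls and Rpia with LPS lie above them, and Pdk2 and Pdk4 are the lowest genes.

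Between the genotype labels the set went mostly one way. In controls 27 of the 34 genes were called lower under the BHLHE40-Fl label and 2 higher, in a limma test over 20419 genes with Benjamini-Hochberg adjustment and a threshold of 0.05, where 16.6% of all tested genes were lower and 15% higher. The 2 higher genes were Hk3 and Pdk4. Pdk4 held 14 reads in the BHLHE40-Fl-labelled controls and passed the filter only through that group, so its call carries no weight. With LPS 26 were lower and 1 higher, against 19.8% and 17.7% of all genes, and the counts were again 26 and 1 without BHLHE40-Fl-labelled LPS replicate 1. The median log2 difference of the set was -0.83 in controls and -0.90 with LPS, against 0.0013 and -0.018 for all genes. With equal library totals 25 were lower and 4 higher in controls (all genes 12.2% and 24.6%), and 23 lower and 3 higher with LPS (all genes 10.8% and 29.9%). There were 22 genes with less than 10% of their sequence shared with other genes. Of these 16 were lower and 2 higher in controls (again Hk3 and Pdk4), and 14 lower and 1 higher with LPS. The comparisons use different libraries, and 24 of the 34 genes were called lower in both of them, as were 10.2% of all tested genes.

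With LPS the set split. In Lyz2Cre 14 genes rose and 10 fell, where 25% and 23.9% of all tested genes rose and fell, and the median log2 change was 0.048 against 0 for all genes. With the BHLHE40-Fl label 12 rose and 16 fell (11 and 17 without LPS replicate 1), against 24.9% and 25.6%, with a median of -0.27 against -0.053. With equal library totals 8 rose and 20 fell in Lyz2Cre (all genes 11.5% and 45.8%), and 6 rose and 23 fell under the other label (all genes 12.6% and 46.1%), with medians of -0.68 and -0.89 against -0.57 and -0.56 for all genes. Of the 34 genes 10 rose in both labels, as did 19.1% of all tested genes, Hk1, Hk2, Hk3, Pfkp, Pfkfb3, Pgk1, Ldha, Slc16a1, Pdk3 and Rpe. Another 10 fell in both, as did 17.6% of all tested genes, Gpi1, Pfkm, Pfkfb4, Aldoc, Ldhb, Pdk1, Pdk2, G6pdx, Taldo1 and Tkt. The LPS response differed between labels (an interaction term in the same fit) for 16 genes, 5 with a higher and 11 with a lower change under the BHLHE40-Fl label, against 9.52% and 9.31% of all genes.

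**Figure D2:**
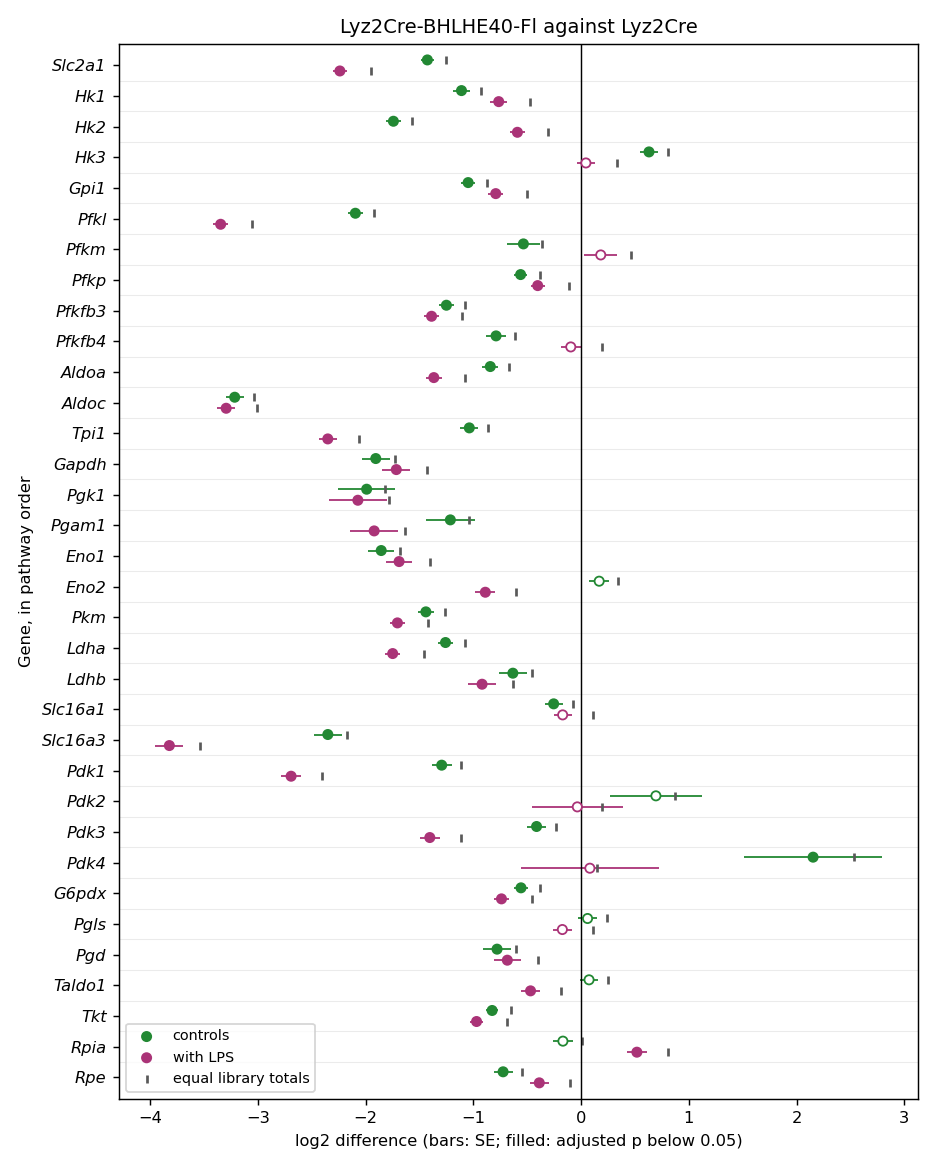
Log2 difference of Lyz2Cre-BHLHE40-Fl against Lyz2Cre in controls (green) and with LPS (purple), with the SE from limma as bars, filled circles for adjusted p below 0.05, and grey ticks for the same difference with equal library totals. Slc16a3, Pfkl and Aldoc lie farthest to the left, and Pdk4 in controls, which rests on 14 reads, farthest to the right. Hk3 and the uncalled Pdk2 in controls and Rpia with LPS also lie to the right of 0, and the grey ticks lie slightly to the right of their circles.

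Glucose enters through Slc2a1 (ENSMUSG00000028645, chr4:119108711-119137983 in GENCODE M21 on GRCm38, as for the positions below), which encodes the transporter GLUT1 and was lower under the BHLHE40-Fl label in both treatments. It read 5771, 5754 and 6009 scaled reads in Lyz2Cre controls and 11012, 11235 and 10808 with LPS. Under the BHLHE40-Fl label it read 2324, 2029.8 and 2176 in controls and 2372, 2254 and 2377 with LPS. All 6 Lyz2Cre libraries were above all 6 of the other label, and only the Lyz2Cre libraries separated by LPS. The label difference was -1.43 ± 0.063 (SE) on the log2 scale in controls (limma adjusted p = 5.63e-12) and -2.24 ± 0.063 (SE) with LPS (limma adjusted p = 2.7e-14). LPS raised Slc2a1 by 0.91 in Lyz2Cre (limma adjusted p = 8.44e-10), where equal library totals left 0.19 and quantile normalization -0.028, and it changed by 0.10 under the other label (limma adjusted p = 0.193). The difference between these responses was -0.81 (limma adjusted p = 3.06e-06).

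Hexokinases trap glucose as glucose 6-phosphate, and their isozymes moved apart. Hk2, the inducible isozyme, stood at 5963, 6745 and 6692 in Lyz2Cre controls and at 20969, 19168 and 20152 with LPS. In BHLHE40-Fl-labelled libraries it stood at 1918, 1937 and 1934 in controls and 12098, 14188 and 13798 with LPS. The 4 groups did not overlap, and the label gap was wide in controls and narrow with LPS. Hk2 rose 3.11-fold in Lyz2Cre (1.64 ± 0.072 (SE) log2, limma adjusted p = 1.9e-12) and 6.92-fold under the other label (2.79 ± 0.072 (SE) log2, limma adjusted p = 8.82e-16). Its response was larger there by 1.15 (limma adjusted p = 2.65e-07), and its label difference was -1.74 in controls and -0.59 with LPS. The folds with LPS are on the deposited scaling, and equal library totals make them smaller.

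Hk3, the isozyme of myeloid cells, was the most abundant hexokinase per kilobase of exon and the only gene of the steps before aldolase that was called higher under the BHLHE40-Fl label. It stood at 14589, 15293 and 12756 in Lyz2Cre controls and 20569, 23655 and 21675 in the controls of the other label. With LPS it stood at 42634, 47329 and 45363 and 49333, 44892 and 45322, where the groups overlapped. The label difference in controls was 0.63 ± 0.083 (SE) log2 (limma adjusted p = 9.62e-06), and with LPS it was 0.044 (limma adjusted p = 0.724). Hk3 rose with LPS by 1.67 in Lyz2Cre and by 1.08 under the other label, the latter call being lost with quantile normalization (0.089). Hk1, the housekeeping isozyme, ranged from 3414 to 3972 in Lyz2Cre controls and from 1634 to 1745 in the other controls, a difference of -1.11 (limma adjusted p = 4.53e-09), and its difference with LPS was -0.76. Hk1 rose with LPS by 0.93 under the BHLHE40-Fl label and by 0.58 in Lyz2Cre, where the sign turned to -0.15 with equal library totals and -0.082 with quantile normalization.

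Gpi1, which turns glucose 6-phosphate into fructose 6-phosphate, went from 8154 ± 281 to 5127 ± 205 with LPS in Lyz2Cre and from 3941 ± 113 to 2966 ± 239.9 under the BHLHE40-Fl label (SD, n = 3). It fell with LPS in both, with log2 changes of -0.67 and -0.41. It was also lower under that label, with log2 differences of -1.05 in controls and -0.79 with LPS (limma adjusted p = 1.09e-09 and 5.36e-08). Of its transcript 43.3% is shared with other genes, by a measure explained with Gapdh below.

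Phosphofructokinase, the committed step of glycolysis, split between its isozymes. Pfkl (ENSMUSG00000020277, chr10:77986947-78010083), the liver-type subunit, read 9470.3, 9037 and 9369 in Lyz2Cre controls and 10385, 9729.8 and 9567 with LPS. The BHLHE40-Fl-labelled controls read 2113, 2234 and 2177, and the LPS libraries 1057, 903 and 963. Every library of that label lay far below every Lyz2Cre library, and the gap was wider with LPS. Pfkl was 4.27-fold lower in controls (-2.09 ± 0.067 (SE) log2, limma adjusted p = 7.08e-14) and 10.2-fold lower with LPS (-3.34 ± 0.067 (SE) log2, limma adjusted p = 6.61e-16). Its log2 change with LPS was -1.16 under the BHLHE40-Fl label (limma adjusted p = 6.14e-11) and 0.09 in Lyz2Cre (limma adjusted p = 0.299), a value that became -0.64 with equal library totals and -0.88 with quantile normalization. The difference between the responses was -1.25 (limma adjusted p = 4.01e-08).

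Pfkp, the platelet-type subunit, went the other way with LPS. Its values were 4619.7, 4519 and 5125 in Lyz2Cre controls, rising to 13367, 13781 and 13777 with LPS. For the BHLHE40-Fl label the values were 3183, 3231 and 3237 in controls and 10746, 10368 and 9857 with LPS. The LPS groups did not overlap the controls, and the libraries of the BHLHE40-Fl label were slightly lower in each treatment. Pfkp rose by 1.52 ± 0.063 (SE) in Lyz2Cre (limma adjusted p = 8.33e-13) and by 1.68 ± 0.063 (SE) under the other label (limma adjusted p = 1.41e-13). Its label difference was -0.56 in controls and -0.40 with LPS, and the latter call was lost with equal library totals (-0.12) and quantile normalization (-0.087). Pfkm, the muscle-type subunit, was low. It fell from 227 ± 4.91 to 84.8 ± 17.7 in Lyz2Cre (SD, n = 3, limma adjusted p = 3.9e-07) and from 156 ± 4.43 to 95.1 ± 7.02 under the other label (limma adjusted p = 0.000867).

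The PFKFB enzymes make or remove fructose 2,6-bisphosphate, the strongest activator of phosphofructokinase, and 2 of their genes moved in opposite directions with LPS. Pfkfb3, the isozyme with the highest kinase activity, read 3339, 3489 and 3512 in Lyz2Cre controls and 9542, 10069 and 10391 with LPS. Controls of the BHLHE40-Fl label read 1517, 1463 and 1368, and its LPS libraries 3450.1, 4034 and 4001. It rose in both, by 1.54 and 1.40, and was lower under the BHLHE40-Fl label, with a log2 difference of -1.25 ± 0.071 (SE) in controls (limma adjusted p = 1.98e-10) and -1.39 ± 0.071 (SE) with LPS (limma adjusted p = 6.71e-11). Pfkfb4 fell from 1583 ± 118 to 490.4 ± 46.4 in Lyz2Cre (SD, n = 3) and from 915 ± 68 to 458 ± 31.1 under the other label, where the log2 changes were -1.69 and -0.997 (limma adjusted p = 3.61e-11 and 4.98e-08). The fall was smaller under the BHLHE40-Fl label by 0.69 (limma adjusted p = 0.000926).

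**Figure D3:**
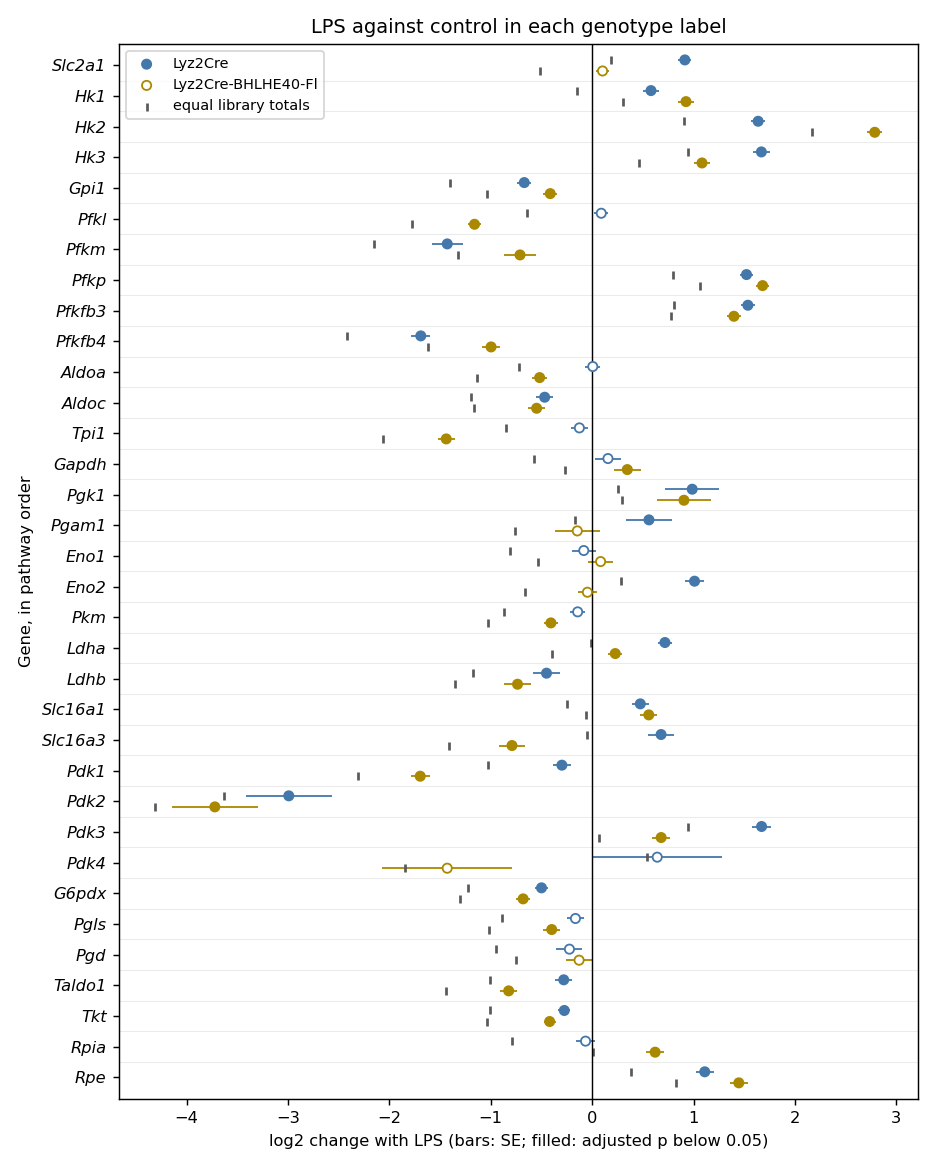
Log2 change with LPS in Lyz2Cre (blue) and in Lyz2Cre-BHLHE40-Fl (ochre), with the SE as bars, filled circles for adjusted p below 0.05 and grey ticks for equal library totals. Hk2 and Pfkp lie on the right in both labels, Pfkfb4 and Pdk2 on the left in both, while Pfkl, Tpi1 and Pdk1 lie farther left in Lyz2Cre-BHLHE40-Fl.

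Aldolase splits fructose 1,6-bisphosphate into the triose phosphates. Aldoa, the main isozyme here, read 47539.6, 48536 and 42493 in Lyz2Cre controls and 46142, 46559 and 46229.6 with LPS. Under the BHLHE40-Fl label it read 24620.5, 25039 and 27565 in controls and 17414, 17929 and 18545 with LPS. The labels did not overlap in either treatment, and Aldoa was lower under the BHLHE40-Fl label, with a log2 difference of -0.84 ± 0.074 (SE) in controls (limma adjusted p = 5.96e-08) and -1.37 ± 0.074 (SE) with LPS (limma adjusted p = 1.31e-10). Its LPS change was -0.52 under that label (limma adjusted p = 1.09e-05) and 0.0062 in Lyz2Cre (limma adjusted p = 0.967), the latter turning to -0.72 with equal library totals and -1.11 with quantile normalization.

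Aldoc (ENSMUSG00000017390, chr11:78322968-78327781), the isozyme best known from brain, had a far larger relative difference than Aldoa. It read 2221, 1872 and 2063 in Lyz2Cre controls and 217, 226 and 217 in the other controls. With LPS it read 1438, 1474 and 1527 against 154, 144 and 152. It was 9.34-fold lower in controls (-3.21 ± 0.083 (SE) log2, limma adjusted p = 4.58e-15) and 9.86-fold lower with LPS (-3.29 ± 0.083 (SE) log2, limma adjusted p = 6.48e-15). Aldoc fell with LPS in both labels, with log2 changes of -0.47 in Lyz2Cre and -0.55 under the other label. None of its transcript is shared with other genes by the measure given below.

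Tpi1, which interconverts the triose phosphates, fell more with LPS under the BHLHE40-Fl label. Its values were 16387, 16325 and 17660.5 in Lyz2Cre controls and 15763, 15871 and 14539 with LPS. In BHLHE40-Fl-labelled libraries they were 8145, 7734 and 8674 in controls and 3437, 2654 and 3002 with LPS. Its log2 change with LPS was -1.44 there (limma adjusted p = 6.78e-11), and in Lyz2Cre the change was -0.13 (limma adjusted p = 0.24, and called at -0.85 with equal library totals). The difference between the responses was -1.31 ± 0.118 (SE) (limma adjusted p = 3.04e-07). The label difference was -1.04 in controls and -2.35 with LPS.

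The next enzymes, from Gapdh to Pkm, carry a limit of measurement. Many of these genes have processed copies across the genome, and reads that fit more than 1 place may be dropped or divided by the aligner and counter, whose settings the sources used here do not give. The share of 50-base stretches of the longest coding transcript that occur in another gene, with at most 1 mismatch, was 84.2% for Gapdh, 83.3% for Eno1, 68% for Pgk1, 59.4% for Ldhb, 56.3% for Pkm, 41.6% for Ldha, 41.5% for Pgam1, 29.9% for Aldoa and 24% for Tpi1. For 22 of the 34 genes it was under 10%. Gapdh stood at 98.6 scaled reads per kilobase of exon in Lyz2Cre controls, against 6099 for Tpi1 and 9082 for Pkm. Rows of pseudogenes named after a gene of the set, by its symbol followed by -ps, held at most 0.478% of that gene's value. Such names cover few of the copies, since 294 other genes share 50-base stretches with Gapdh and no row is so named for Eno1 or Pkm. The reads that went to all copies together were not measured. Levels and differences are therefore uncertain for the 12 genes at 10% or more, which are the 9 just named with Gpi1, Taldo1 (23%) and G6pdx (17.5%). That list depends on the length of the stretches. With 100 bases Aldoa (0.7%), G6pdx (3.4%), Tpi1 (7%) and Taldo1 (8%) were under 10%.

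**Figure D4:**
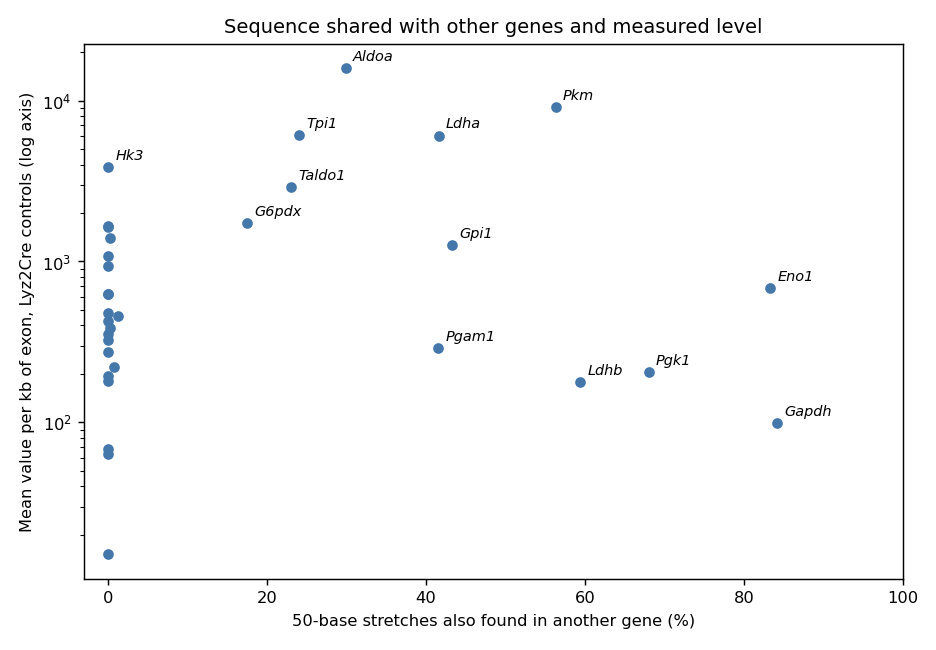
Mean scaled reads per kilobase of exon in Lyz2Cre controls (log axis) against the percent of 50-base stretches found in another gene, 1 point per gene with a level above 0. Gapdh, at 84.2% shared, lies among the lowest genes, and Aldoa, Pkm, Tpi1 and Ldha are the highest.

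Gapdh, Pgk1, Pgam1, Eno1 and Pkm were lower under the BHLHE40-Fl label in both treatments. Gapdh, the triose phosphate dehydrogenase gene, read 378, 408 and 436 in Lyz2Cre controls and 87.2, 117 and 123 in the other controls, or -1.91 ± 0.131 (SE) log2 by limma (adjusted p = 2.38e-09). With LPS it read 458, 418 and 487 against 140.4, 138 and 134, a difference of -1.72. Pgk1, whose enzyme makes the earliest ATP of the pathway, read 585, 435 and 368 against 64, 199.7 and 114 in controls (-1.99 ± 0.268 (SE), limma adjusted p = 1.2e-05). With LPS Pgk1 read 914, 932 and 860.1 against 225, 189 and 230.4, without overlap. The mutase gene Pgam1 held 572 ± 153 in Lyz2Cre controls and 825 ± 48.1 with LPS, and 253 ± 105 and 220.2 ± 43.7 under the other label (SD, n = 3). The enolase gene Eno1 held 3656 ± 288 and 3446 ± 67.9 against 1022 ± 207 and 1075 ± 158 in the same order. Pgam1 differed by -1.21 in controls and -1.92 with LPS, and Eno1 by -1.85 and -1.69.

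Their LPS calls depended on the scaling or on single libraries. Pgk1 rose by 0.99 in Lyz2Cre and by 0.91 under the BHLHE40-Fl label, where the call was lost without control replicate 1 (0.50), and both calls were lost with equal library totals (0.26 and 0.29). Gapdh rose by 0.35 under the BHLHE40-Fl label (limma adjusted p = 0.0354), a call lost without control replicate 1 (0.19) or any 1 of the 3 LPS libraries (0.33, 0.34 and 0.36), and turned to -0.27 with equal library totals. Pgam1 rose by 0.56 in Lyz2Cre (limma adjusted p = 0.0478), a call lost without control replicate 2 or 3 (0.53 and 0.39) or any 1 of the LPS libraries (0.61, 0.55 and 0.53), and turned to -0.17 with equal library totals. Eno1 changed by -0.083 in Lyz2Cre and by 0.083 under the other label (limma adjusted p = 0.617 and 0.606).

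Eno2, the enolase best known from neurons, rose with LPS in Lyz2Cre. It read 1156, 1005 and 956 in Lyz2Cre controls and 1909, 2184 and 2179 with LPS. The BHLHE40-Fl-labelled controls read 1028, 1262 and 1213, and the LPS libraries 1201, 1053 and 1129.6. LPS raised it by 1.01 ± 0.094 (SE) in Lyz2Cre (limma adjusted p = 5.2e-08), and under the other label the change was -0.047 (limma adjusted p = 0.719). Both changes are on the deposited scaling, and equal library totals lower them. The difference between the responses was -1.06 (limma adjusted p = 1.47e-05), and only 0.7% of the Eno2 transcript is shared with other genes.

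Pkm, the pyruvate kinase gene of macrophages, was lower under the BHLHE40-Fl label in both treatments. It read 44401, 45449.8 and 46399 in Lyz2Cre controls and 40073, 43126 and 40273 with LPS. For the BHLHE40-Fl label the values were 16948, 15676 and 17628 in controls and 13449, 11905 and 12552 with LPS. The label difference was -1.44 ± 0.072 (SE) in controls (limma adjusted p = 3e-11) and -1.70 ± 0.072 (SE) with LPS (limma adjusted p = 5.06e-12). The LPS change was -0.14 in Lyz2Cre and -0.41 under the other label (limma adjusted p = 0.115 and 0.000112). The difference between these responses was not called (-0.26, limma adjusted p = 0.084), and equal library totals lower both changes. Gene-level values do not tell the M1 and M2 splice forms apart.

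Lactate dehydrogenase turns pyruvate into lactate, and its A subunit gene was the main one. Ldha read 20078, 19116 and 20999.5 in Lyz2Cre controls and 32994, 33360.5 and 32597 with LPS. Controls of the BHLHE40-Fl label read 8529.9, 8328 and 8286, and its LPS libraries 10794, 9239.7 and 9482. It was lower under that label, with a log2 difference of -1.26 ± 0.069 (SE) in controls (limma adjusted p = 1.17e-10) and -1.75 ± 0.069 (SE) with LPS (limma adjusted p = 2.14e-12). Ldha rose with LPS by 0.72 in Lyz2Cre and 0.23 under the other label, but the sign turned in both with equal library totals (-0.0104 and -0.39) and quantile normalization (-0.48 and -0.68). The 2 E-boxes printed above for Ldha lie 145 and 48 bases before the start site of that window. Another RefSeq window of Ldha, at chr7:46846832-46847081, holds no E-box and no ACGTG. Ldhb, the B subunit gene, fell with LPS, with log2 changes of -0.45 in Lyz2Cre (not called with quantile normalization, -0.27) and -0.74 under the other label. Its mean was 281 ± 33.8 in Lyz2Cre controls and 179.7 ± 8.01 in the other controls (SD, n = 3), and its label differences were -0.63 in controls and -0.92 with LPS.

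Slc16a3 (ENSMUSG00000025161, chr11:120948480-120960868), which encodes the lactate exporter MCT4, showed the largest difference between labels in the set with LPS. It read 5865, 4975 and 4146 in Lyz2Cre controls and 7929, 7966 and 7874 with LPS. Under the BHLHE40-Fl label it read 816, 1055 and 1057 in controls and 680.0, 499.9 and 516 with LPS. The labels lay far apart in both treatments, and LPS widened the gap. Slc16a3 was 5.12-fold lower in controls (-2.35 ± 0.129 (SE) log2, limma adjusted p = 1.13e-10) and 14-fold lower with LPS (-3.82 ± 0.129 (SE) log2, limma adjusted p = 2.75e-13). With LPS it fell under the BHLHE40-Fl label (-0.79 log2, limma adjusted p = 4.8e-05) and rose by 0.68 in Lyz2Cre (limma adjusted p = 0.000231), where the sign turned with equal library totals (-0.049) and quantile normalization (-0.15). The difference between the responses was -1.47 ± 0.182 (SE) (limma adjusted p = 1.25e-05).

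Slc16a1, which encodes MCT1, a transporter that carries lactate both ways, differed little between the labels. It read 834, 759 and 794 in Lyz2Cre controls and 648, 722 and 632 in the other controls (-0.25, limma adjusted p = 0.0272). That call was lost without Lyz2Cre control replicate 1 or 3 (-0.22 and -0.26) or BHLHE40-Fl-labelled control replicate 1 or 3 (-0.23 and -0.22), and with equal library totals (-0.078). With LPS it read 1031, 1163 and 1126 against 1058, 903 and 989, and these groups overlapped. Slc16a1 rose with LPS by 0.47 in Lyz2Cre and by 0.56 under the other label, both turning with equal library totals (-0.25 and -0.06). Its promoter window holds 1 E-box, 200 bases before the start site.

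Pyruvate dehydrogenase kinases (PDK) switch off pyruvate oxidation, and their genes did not all move the same way with LPS. Pdk1 read 2893, 2795 and 3319.7 in Lyz2Cre controls and 2383, 2489.7 and 2432 with LPS. In BHLHE40-Fl-labelled libraries it read 1213, 1186 and 1264 in controls and 439, 333 and 364 with LPS. It was lower under that label, with a log2 difference of -1.29 ± 0.092 (SE) in controls (limma adjusted p = 3.79e-09) and -2.69 ± 0.092 (SE) with LPS (limma adjusted p = 3.15e-13). Pdk1 fell with LPS, with log2 changes of -1.70 under the BHLHE40-Fl label and -0.30 in Lyz2Cre, the latter a call lost without Lyz2Cre control replicate 3 (-0.22), and the responses differed by -1.40 (limma adjusted p = 4.52e-07).

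Pdk3 rose where Pdk1 fell. It read 472, 500.1 and 512 in Lyz2Cre controls and 1374, 1719 and 1661 with LPS. The BHLHE40-Fl-labelled controls read 358, 379.7 and 376, and the LPS libraries 644, 576 and 568. The rise was 1.67 ± 0.092 (SE) in Lyz2Cre (limma adjusted p = 3.69e-11) and 0.68 ± 0.092 (SE) under the other label (limma adjusted p = 5.68e-06), where it was lost with equal library totals (0.063), and the responses differed by -0.99. Pdk2 fell with LPS from 47.8 ± 12 to 5.37 ± 2.5 in Lyz2Cre and from 76.4 ± 4.04 to 5.5 ± 3.48 under the BHLHE40-Fl label (SD, n = 3, limma adjusted p = 9.96e-06 and 6.87e-07). Pdk4 was at 0 in all 3 Lyz2Cre controls and at 2.9, 3.9 and 3.6 in the controls of the other label, or 14 reads in all, and it passed the filter only through that group.

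In the oxidative branch of the pentose phosphate pathway, G6pdx, whose enzyme sets the pace of the branch, read 4953, 5478 and 5502 in Lyz2Cre controls and 3791, 3738 and 3728 with LPS. For the BHLHE40-Fl label the values were 3762, 3324 and 3741 in controls and 2165, 2271 and 2309 with LPS. Lyz2Cre controls stood above and BHLHE40-Fl-labelled LPS libraries below the other groups, which overlapped each other. G6pdx fell with LPS, with log2 changes of -0.50 in Lyz2Cre and -0.68 under the other label (limma adjusted p = 5.51e-06 and 1.1e-07), and its label difference was -0.56 in controls and -0.74 with LPS. Pgd, the gene of the other NADPH-making dehydrogenase, held 4027 ± 251 and 3452 ± 298 in Lyz2Cre controls and with LPS, and 2347 ± 202 and 2183 ± 502 under the other label (SD, n = 3). Pgd was lower under the BHLHE40-Fl label (log2 differences of -0.78 in controls and -0.68 with LPS). It was not called for LPS on the deposited scaling (limma adjusted p = 0.166 and 0.439). Pgls, the lactonase gene between them, held 1035 ± 71.1 and 922 ± 40.5 in Lyz2Cre controls and with LPS, and 1079.9 ± 93.3 and 818 ± 60 under the other label (SD, n = 3). It did not pass the test between labels (0.06 in controls and -0.17 with LPS, limma adjusted p = 0.664 and 0.125).

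In the non-oxidative branch, Tkt, the transketolase gene, was lower under the BHLHE40-Fl label in both treatments. It read 11876, 12002 and 12382 in Lyz2Cre controls and 10135, 10003 and 9833 with LPS. Controls of the BHLHE40-Fl label read 6990.1, 6480.1 and 6994, and its LPS libraries 5149, 5066 and 5079. Its label difference was -0.83 ± 0.058 (SE) in controls (limma adjusted p = 3.29e-09) and -0.97 ± 0.058 (SE) with LPS (limma adjusted p = 4.93e-10), and its log2 changes with LPS were -0.27 in Lyz2Cre and -0.42 under the other label. Taldo1, the transaldolase gene, stood at 6270.4 ± 415 and 6594 ± 309 in the controls of the labels (limma adjusted p = 0.587), and with LPS it was lower under the BHLHE40-Fl label (-0.47 log2), a call lost with equal library totals (-0.18) and quantile normalization (-0.23). Its fall with LPS in Lyz2Cre (-0.28) was not called without control replicate 1 or LPS replicate 3 (-0.24 in either case).

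Rpe and Rpia encode the enzymes that interconvert the pentose phosphates, and Rpe rose with LPS in both labels while Rpia rose under the BHLHE40-Fl label. Rpe, the epimerase gene, rose from 1486 ± 154 to 3203 ± 202 in Lyz2Cre (SD, n = 3, limma adjusted p = 6.17e-09) and from 898 ± 77 to 2448 ± 164 under the other label (limma adjusted p = 1.38e-10). Rpia, the ribose 5-phosphate isomerase gene, read 309.7, 312 and 286 in BHLHE40-Fl-labelled controls and 449, 497 and 452 with LPS, a rise of 0.62 (limma adjusted p = 1.54e-05) that was lost with equal library totals. In Lyz2Cre it read 355, 334 and 332 in controls and 340.4, 324 and 311 with LPS, which overlapped (-0.065, limma adjusted p = 0.602). Rpia was the 1 gene of the set called higher under the BHLHE40-Fl label with LPS, by 0.52 ± 0.091 (SE) (limma adjusted p = 0.000207).

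Within a library, the share of an isozyme in its family does not depend on how libraries are scaled. Shares were taken from values per kilobase of exon in 8 families, giving 80 comparisons between groups. In the 5 families with 2 members the shares mirror each other, so 20 of the 80 repeat another. The smallest two-sided exact permutation p was 0.1, or 0.116 after Benjamini-Hochberg adjustment, so none passed. Pfkl held 76.7% ± 0.85 of the phosphofructokinase family in Lyz2Cre controls and 58.7% ± 1.56 with LPS (SD, n = 3). Under the BHLHE40-Fl label it held 53.2% ± 0.442 in controls and 15.4% ± 0.909 with LPS. Pfkp held 19.5% and 40.3% in Lyz2Cre and 39.2% and 81.5% under the other label. With the longest coding transcript as the length, chosen after seeing the data, the Pfkp shares were 30.8%, 55.1%, 54.9% and 89.4% in the same order, so Pfkp then led in 3 groups rather than 1.

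Among lactate transporters, Slc16a3 held 83.7% ± 2.17 of its pair with Slc16a1 in Lyz2Cre controls and 85.6% ± 0.75 with LPS, and 54.8% ± 3.52 and 32.2% ± 2.37 under the BHLHE40-Fl label (SD, n = 3). Pdk3 held 32.6% ± 1.7 of the PDK family in Lyz2Cre controls and 66.1% ± 2.21 with LPS, and 44.3% ± 1.2 and 82.1% ± 0.96 under the other label, while Pdk1 went from 64.9% to 33.7% and from 48% to 17.1%. Pfkfb3 held 58.4% ± 2.43 against Pfkfb4 in Lyz2Cre controls and 92.9% ± 0.868 with LPS, and 50.5% ± 2.42 and 84.3% ± 2.04 under the other label. Hk2 held 20.2% ± 2.03 of the hexokinases in Lyz2Cre controls and 5% ± 0.304 in BHLHE40-Fl-labelled controls, and 20.7% ± 1.56 and 14.7% ± 1.62 with LPS, while Hk3 held the rest but for at most 7.99% of Hk1. Ldha held at least 95.7% of its pair and Aldoa at least 96.2% in every group on average. Eno1 held 75.5% ± 0.751 of its pair with Eno2 in Lyz2Cre controls and 59.1% ± 2.17 with LPS. Under the BHLHE40-Fl label it held 43.1% ± 2.68 and 45.4% ± 4.09, or 54.4% and 56.6% with the longest coding transcript as the length. Of the Eno1 transcript 83.3% is shared with other genes, so its share is uncertain.

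**Figure D5:**
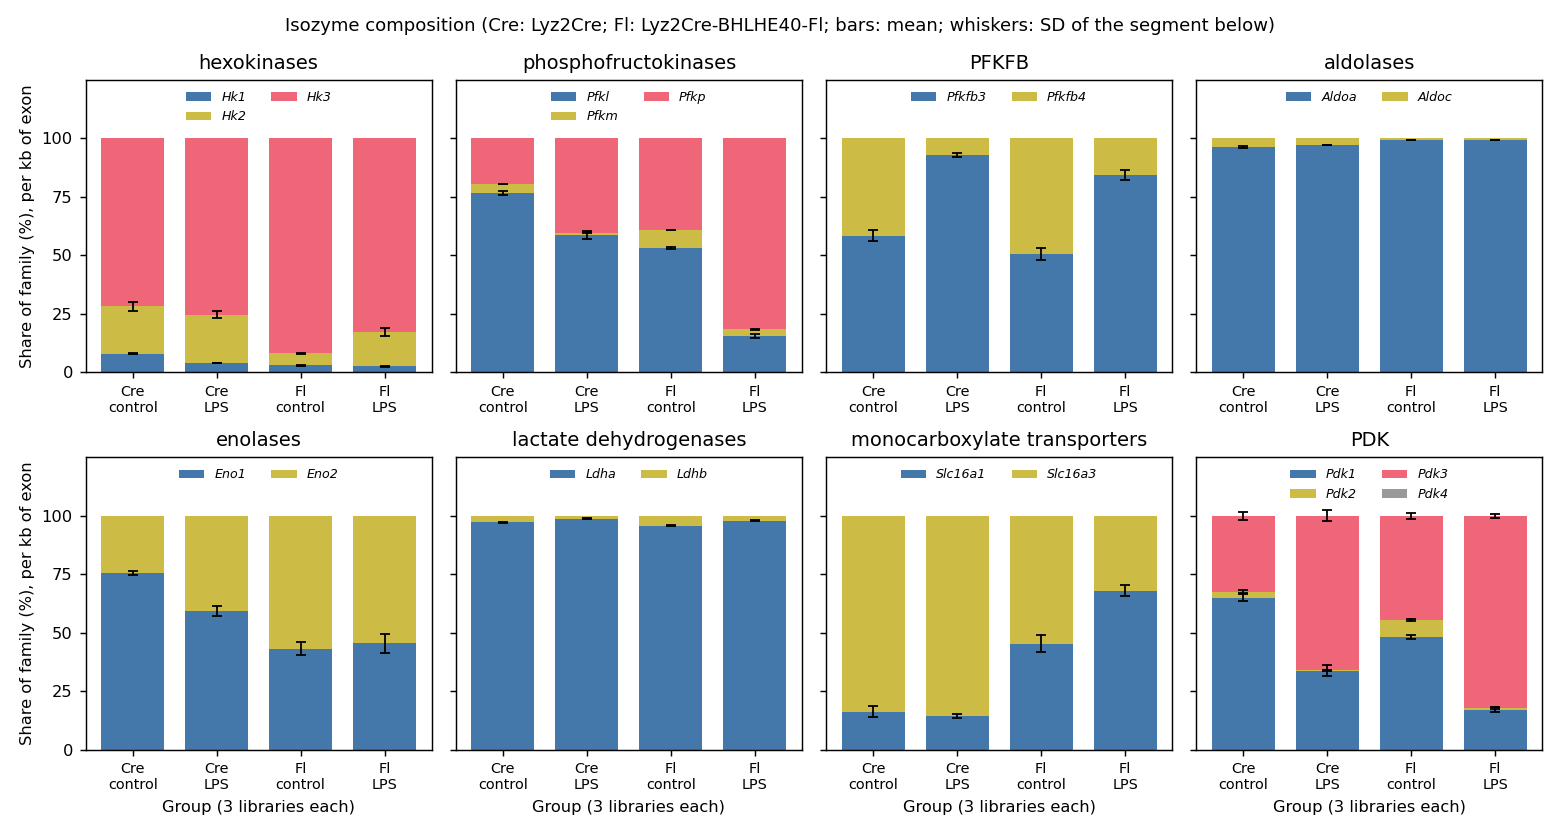
Mean share of each isozyme in its family (percent of scaled reads per kilobase of exon) in the 4 groups of 3 libraries, stacked to 100%, with whiskers for the SD of the segment below them; Cre stands for Lyz2Cre and Fl for Lyz2Cre-BHLHE40-Fl. The Pfkl segment shrinks from 76.7% in Lyz2Cre controls to 15.4% in Lyz2Cre-BHLHE40-Fl with LPS, and the Slc16a3 segment from 83.7% to 32.2%.

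Other genes of the pathway were taken from lists made by function, and their counts are to be read against the shares of all genes given above (25% up and 23.9% down with LPS in Lyz2Cre, 24.9% and 25.6% under the BHLHE40-Fl label, and between labels 15% and 16.6% in controls and 17.7% and 19.8% with LPS). Of 7 other hexose transporter genes, 1 rose and 3 fell with LPS in Lyz2Cre, and 1 rose and 5 fell under the BHLHE40-Fl label. The 1 that rose was Slc2a6, which encodes the lysosomal transporter GLUT6. It read 2078, 1777 and 1616 in Lyz2Cre controls and 25171, 26324 and 26051 with LPS. In BHLHE40-Fl-labelled libraries it read 254, 278 and 266 in controls and 31434, 26722 and 29251 with LPS, so the labels were far apart in controls (-2.77 ± 0.084 (SE), limma adjusted p = 3.89e-14) and close with LPS, without overlap. Its response was larger under the BHLHE40-Fl label by 2.94 ± 0.119 (SE) (limma adjusted p = 2.26e-11). Slc2a3, the gene of GLUT3, fell in both labels, from 91.8 ± 17.1 to 33.9 ± 13.1 in Lyz2Cre and from 99.3 ± 4.79 to 20.1 ± 4.34 under the other label (SD, n = 3, log2 changes -1.47 and -2.27).

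Among 7 transcription factors and sensors known to act on glycolytic genes, 3 rose and 3 fell with LPS in Lyz2Cre, and 5 rose and 1 fell under the other label. Hif1a, the oxygen-regulated subunit gene of HIF-1, read 10090.1, 10789 and 14273 in Lyz2Cre controls and 28385, 27926 and 27026 with LPS. The BHLHE40-Fl-labelled controls read 4614, 3682 and 3957, and the LPS libraries 13216, 13229 and 12419. Hif1a rose by 1.26 in Lyz2Cre and 1.67 under the other label (0.53 and 1.05 with equal library totals). It was lower under the BHLHE40-Fl label, with a log2 difference of -1.51 ± 0.106 (SE) in controls (limma adjusted p = 3.13e-09) and -1.10 ± 0.106 (SE) with LPS (limma adjusted p = 2.25e-07). Myc, a growth-related factor gene, read 107, 86.9 and 66.9 in Lyz2Cre with LPS and 165, 279 and 347 under the other label (1.55, limma adjusted p = 3.67e-05), and its LPS responses of -0.80 in Lyz2Cre and 0.78 under the other label (0.16 with equal library totals) differed by 1.58 (limma adjusted p = 0.00199). Between labels 1 of the 7 was higher and 2 lower in controls, and 3 higher and 2 lower with LPS.

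Lactate transporters need partner proteins at the membrane, and the genes of both partners were lower under the BHLHE40-Fl label. Bsg, the basigin gene whose protein partners MCT1 and MCT4, read 8627, 7374 and 7849 in Lyz2Cre controls and 3218, 3361 and 3378 in the other controls (-1.26 ± 0.067 (SE), limma adjusted p = 8.09e-11). With LPS it read 8689, 9059 and 8939.8 against 3857, 3514 and 3569 (-1.29, limma adjusted p = 8.4e-11). Emb, the gene of the related protein embigin, had log2 differences of -1.32 and -1.52. The other genes of this list of 4, Slc16a6 and Slc16a7, were higher under the BHLHE40-Fl label in controls by 0.47 and 0.46. With LPS Slc16a6, of the same transporter family, was higher by 1.76 (limma adjusted p = 8.25e-10), and Slc16a7, the MCT2 gene, differed by -0.082 (limma adjusted p = 0.582).

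For the mitochondrial entry of pyruvate the genes went both ways in every comparison. Of 10 genes of the pyruvate dehydrogenase complex, its phosphatases and the pyruvate carrier, 3 were higher and 2 lower under the BHLHE40-Fl label in controls, and again 3 and 2 with LPS. The phosphatase gene Pdp1 was higher by 0.42 and 0.39, and the carrier gene Mpc2 lower (log2 differences of -0.70 and -0.75). With LPS 3 rose and 4 fell in each label, and the phosphatase regulator gene Pdpr fell (log2 changes of -1.14 and -1.18). Of 9 tested genes among 18 other glycolytic isozymes and regulators, 0 were higher and 3 lower between labels in controls, and 1 higher and 2 lower with LPS. LPS raised 0 and lowered 5 of them in Lyz2Cre, and raised 1 and lowered 6 under the other label, with Pfkfb2, a further gene of the PFKFB family, at -1.89 and -1.90. Of 6 tested genes of 8 in the wider pentose phosphate list, 0 rose and 5 fell in Lyz2Cre, and 2 rose and 3 fell under the other label. Among these Shpk, the sedoheptulokinase gene, fell with log2 changes of -2.09 and -2.11. H6pd, the dehydrogenase gene of the endoplasmic reticulum, differed between labels by -0.87 in controls and 0.57 with LPS (limma adjusted p = 3.08e-06 and 0.000316).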

How the data were processed

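Total RNA of 12 peritoneal macrophage samples was sequenced on Illumina libraries, per the labels' protocols. The submitters' processing notes name mm10, STAR, Cufflinks and Cuffdiff, without role or version. The deposited values are a signal, namely reads on a scale of each library's own, given to 1 decimal. With a tolerance of 0.06, 100% of the values were whole multiples of 1 step. No source used here records that scaling, and each sample column was mapped to a label (0 were not). The test had been planned for values normalized per library, and it was used unchanged.

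The filter kept 20419 genes that reached 1 in 3 or more libraries, and these were tested on log2(value + 1) with limma 3.58.1 (R 4.3.3), trended, with 1 mean per group over all 12 libraries (8 residual degrees of freedom) and Benjamini-Hochberg adjustment. Log2 changes of low genes are understated on this scale. Folds are ratios of group means. The script was tested on simulated data in which 200 genes changed. The 34 genes and the lists were chosen with earlier results of these data known. All 34 were described, and of each other list up to 4 genes per comparison with the largest changes were eligible, called ones first, of which not all are named. Replicates differed by more than sampling noise (chi-square per degree of freedom 7.35 to 72.2 over 12 pairs), so none was counted as a repeat. Exon lengths and shared sequence are from GENCODE M21 (GRCm38), which holds 53274 of the 53465 identifiers, and promoters from RefSeq. Other settings tried were a pseudocount of 0.1 or 5, no filter or a minimum of 5, equal library totals, quantile normalization, edgeR 4.0.16 with TMM on the recovered reads, the compared groups alone, a replicate block and each library left out. Chosen after seeing the data were the longest coding transcript as a length and the count over genes with under 10% shared sequence.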

Additional observations from a re-analysis of the deposited data

Results flagged for a closer look

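For 16 of the 34 genes the LPS response differed between the genotype labels, by the interaction term of the limma fit at an adjusted p below 0.05. Values are the log2 change with LPS in Lyz2Cre-BHLHE40-Fl minus that in Lyz2Cre. The response was higher under the BHLHE40-Fl label for 5 genes, Hk1 (0.35), Hk2 (1.15), Pfkm (0.72), Pfkfb4 (0.69) and Rpia (0.69). It was lower for 11 genes, Slc2a1 (-0.81), Hk3 (-0.59), Pfkl (-1.25), Aldoa (-0.52), Tpi1 (-1.31), Eno2 (-1.06), Ldha (-0.49), Slc16a3 (-1.47), Pdk1 (-1.40), Pdk3 (-0.99) and Taldo1 (-0.54). Slc16a3, Pdk1 and Tpi1 thus differed the most towards a lower response, and Hk2 towards a higher one. The Hk1 difference was not called on leaving out any 1 of 10 libraries (0.29 to 0.37), nor with no filter. The Pfkm difference was not called on leaving out any 1 of 6 libraries (0.56 to 0.72), nor with quantile normalization (0.63), with which Ldha was not called either (-0.20). Groups of 3 libraries are too small for a test of single outlying libraries.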

How the results depend on the processing

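The scaling of libraries was the choice that mattered most. With equal library totals LPS in Lyz2Cre had 2393 of all genes higher and 9499 lower, with 8 and 20 of the set, and under the BHLHE40-Fl label 2618 and 9571, with 6 of the set higher. Between labels it had 5111 genes higher in controls, 4 of them in the set, and 6200 higher and 2240 lower with LPS, 3 higher in the set. Quantile normalization gave 9 higher and 17 lower in the set for LPS in Lyz2Cre, 4 higher between labels in controls and 2 with LPS. Either scaling gave 8 higher interactions in the set. A filter at 5 removed Pdk4 and left 1 gene higher in controls. With edgeR 27 and 26 of the set were lower between labels in controls and with LPS.

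With equal library totals the sign turned for LPS in Lyz2Cre for Pgam1 (-0.17), Pfkl (-0.64), Slc16a3 (-0.049), Aldoa (-0.72), Slc16a1 (-0.25), Hk1 (-0.15), Gapdh (-0.57) and Ldha (-0.0104). Under the BHLHE40-Fl label it turned for Slc2a1 (-0.52), Slc16a1 (-0.0597), Gapdh (-0.27), Ldha (-0.39) and Eno1 (-0.54). With quantile normalization it turned in Lyz2Cre for Pfkl (-0.88), Slc16a3 (-0.15), Slc2a1 (-0.028), Aldoa (-1.11), Hk1 (-0.082) and Ldha (-0.48), under the BHLHE40-Fl label for Slc2a1 (-0.33) and Ldha (-0.68), and for the Aldoc interaction (0.38). The cause was not tested. LPS changes that kept their sign also moved and are not listed here. Signs are counted where the value was called with or without the change of scaling. Between labels none of those turned, while with equal library totals these uncalled differences did, Rpia in controls (0.0076) and Pfkfb4 (0.19), Slc16a1 (0.11), Pdk2 (0.19) and Pgls (0.11) with LPS.

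Leaving out 1 library at a time kept every sign counted. The set then had 13 to 14 higher and 9 to 10 lower for LPS in Lyz2Cre, 10 to 12 and 16 to 17 under the BHLHE40-Fl label, 2 and 26 to 27 between labels in controls, 1 and 26 with LPS, and 3 to 6 and 11 to 13 for the interaction. The count of 3 came without Lyz2Cre control replicate 1, Lyz2Cre LPS replicate 1, BHLHE40-Fl-labelled control replicate 3 or BHLHE40-Fl-labelled LPS replicate 2. A replicate block left the counts at 14 and 10, 12 and 16, 2 and 27, 1 and 26, and 5 and 11. Same-numbered libraries had correlations of -0.0664 to 0.0277 in their deviations from group means over 18 pairs. Libraries with different numbers had -0.0554 to 0.0865 over 36 pairs. No shared deviation by number was seen, which does not show whether same-numbered libraries came from the same animal or batch. Depth limits Pdk2 with LPS and Pdk4.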

Other observations

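Several genes of the glycogen branch, which stores and releases glucose 6-phosphate, were lower under the BHLHE40-Fl label. Of its 15 genes 2 were higher and 7 lower in controls, and 0 higher and 9 lower with LPS, where 15% and 16.6% of all tested genes were higher and lower in controls and 17.7% and 19.8% with LPS. Pygl, the liver-type glycogen phosphorylase gene, read 4818, 4842 and 5773 in Lyz2Cre controls and 1699, 1635 and 1620.3 in the other controls (-1.63 ± 0.074 (SE) log2, limma adjusted p = 8.56e-12). With LPS it read 1829, 1772 and 1722 against 620.3, 581 and 584 (-1.57 ± 0.074 (SE) log2, limma adjusted p = 2.19e-11). A phosphoglucomutase gene (ENSMUSG00000025791), named Pgm2 in the deposited table and Pgm1 in GENCODE M21, was lower in controls and with LPS (log2 differences of -1.32 and -1.93), and so was Gys1, the glycogen synthase gene (-1.26 and -1.06). With LPS 2 rose and 7 fell in Lyz2Cre, and 1 rose and 11 fell under the BHLHE40-Fl label, against 25% and 23.9%, and 24.9% and 25.6%, of all genes. Pygl fell in both, with log2 changes of -1.53 and -1.47. Gyg, the gene of the glycogen primer glycogenin, read 2580.4, 2642 and 2695 in Lyz2Cre controls and 2851, 3017 and 3000.2 with LPS. Under the BHLHE40-Fl label it read 3447, 3305 and 3365 and 2006, 1919.7 and 1989.9, and the responses differed by -0.94 (limma adjusted p = 2.4e-07).

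Of 5 tested genes among 8 of the gluconeogenic bypass, 0 rose and 3 fell with LPS in each label, read against the same shares. Slc37a4, the glucose 6-phosphate translocase gene of the endoplasmic reticulum, had log2 changes of -1.34 in Lyz2Cre and -0.99 under the BHLHE40-Fl label. Between labels 1 was higher and 2 lower in controls, and 1 higher and 3 lower with LPS. The higher one was Pck2, the mitochondrial phosphoenolpyruvate carboxykinase gene, at 0.28 and 0.35 (limma adjusted p = 0.0439 and 0.0111).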
